A study of Drosophila melanogaster with 4 samples.

Results

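The genes of the cytosolic ribosome are described here in the heads of Drosophila melanogaster, in 2 libraries of flies expressing MJDtr-78Q and in 2 libraries of w1118 flies without it. MJDtr-78Q is a truncated form of human ataxin-3, the protein of Machado-Joseph disease, with an expanded polyglutamine tract, and w1118 is a white-eyed laboratory strain. The question set to these genes is whether their transcripts differ in heads that make the toxic protein. The labels give head as the tissue for all 4 libraries and give no driver, sex, age or number of flies, so the cells that made the protein are not known from them. They also do not say whether the libraries came from separate flies, and p-values then measure only the spread between these libraries, which may be technical. Members were all genes whose FlyBase symbol starts with RpL (large, 60S subunit) or RpS (small, 40S subunit), which gave 87 of the 15682 genes listed. A duplicate copy was a gene whose symbol ends in a or b, is "-like", or is RpL37-1 or RpL37-2, which older names call RpL37a and RpL37b. That gave 22 duplicate copies, in which the major copy of a pair is counted too, and 65 main copies.

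The cytosolic ribosome joins amino acids into protein, and each of its subunits is a scaffold of ribosomal RNA covered by many small proteins. Ribosomal protein genes are among the most highly transcribed genes of a cell, their messenger RNAs are short, and the protein products are needed in near equal amounts. In Drosophila, losing 1 copy of many of them gives the Minute phenotype of slow development and thin bristles. Several have a second copy, and some second copies are used mainly in the germline.

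Of the 87 members, 79 had a mean of at least 10 counts and were tested. These were all 65 main copies and 14 duplicate copies, with 31 genes of the 40S and 48 of the 60S subunit. The other 8 members were all duplicate copies. A further 5 symbols of the reference annotation, RpL19, RpL27A, RpL31, RpS10b and RpS12, had no row matched by gene ID and were not analysed here.

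As a whole, the table gives log2(count + 1) values made alike within a group but not between groups. After back-transformation the MJDtr-78Q libraries sum to 3111583 and 3111393 counts, against 7147867 and 7147717 in w1118, which are totals after normalization and not each library's own depth. All levels below, unless called deposited, are log2(count + 1) after quantile normalization over the 4 libraries, and 9049 genes were tested. The photoreceptor gene ninaE, which encodes the major rhodopsin, was at 14.43 and 14.31 in MJDtr-78Q and at 15.40 and 15.54 in w1118, as a check of the head label. Of 16 testis markers, 9 were listed at 0 in every library.

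Ribosomal protein transcripts separated the 2 MJDtr-78Q libraries from each other more than they separated MJDtr-78Q from w1118. The gap within MJDtr-78Q exceeded the difference between group means for all 79 members. It did so for 74.0% of all tested genes and for 79.5% of other genes with up to 1000 exonic bases. Their median level was 11.23 in MJDtr-78Q library 1 and 12.18 in MJDtr-78Q library 2, against 11.76 in w1118 library 1 and 12.07 in w1118 library 2. The 79 genes held 4.12% and 7.76% of all summed values in the MJDtr-78Q libraries, against 6.08% and 7.44% in the w1118 libraries. MJDtr-78Q library 1 was thus the lowest library and MJDtr-78Q library 2 the highest, with both w1118 libraries between them. In bulk RNA, fewer cells of a type and less RNA per cell cannot be told apart.

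**Figure D1:**
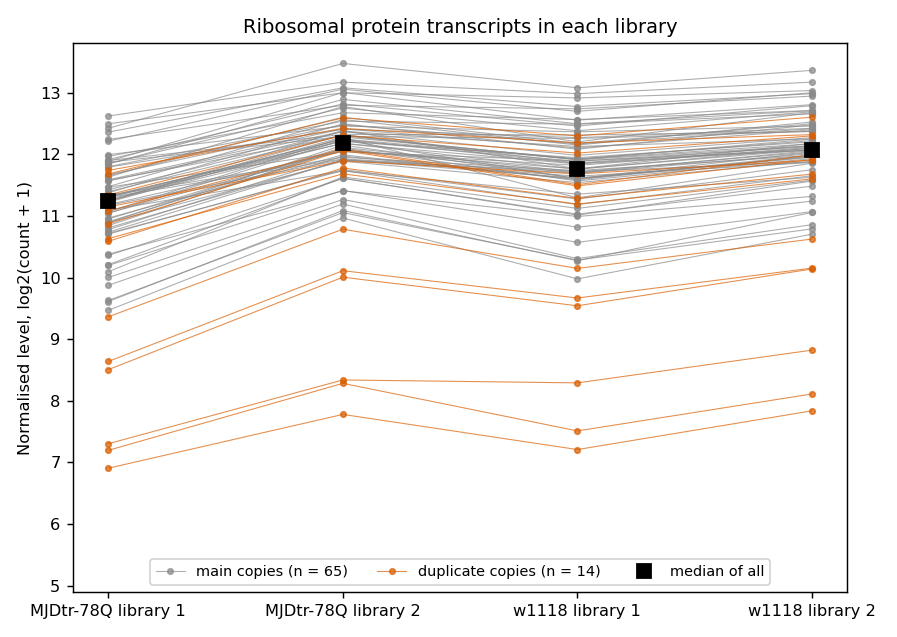
Normalised level, log2(count + 1), of each of the 79 tested ribosomal protein genes in the 4 libraries, with 1 line per gene, main copies in grey, duplicate copies in orange and the median of all as black squares. The lines run nearly parallel, with medians of 11.23 and 12.18 in the MJDtr-78Q libraries and 11.76 and 12.07 in the w1118 libraries.

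The plot of levels by library shows that this order held gene by gene. All 79 members were lowest in MJDtr-78Q library 1 and next lowest in w1118 library 1, with MJDtr-78Q library 2 and w1118 library 2 above both. Among all tested genes 26.7% had this order. The highest library was MJDtr-78Q library 2 for 59 members and w1118 library 2 for 20. The values of the groups therefore overlapped for every member: 0 of 79 had non-overlapping groups, against 29.5% of all tested genes.

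RpS6, the 40S protein phosphorylated by S6 kinase, is an example with a group difference of -0.22, near the members' median of -0.24. RpS6 had a narrow gap within w1118, at 0.12 against a median of 0.32 over the members. It was at 11.57 and 12.37 in the MJDtr-78Q libraries, against 12.13 and 12.25 in the w1118 libraries. The means were 11.97 ± 0.57 in MJDtr-78Q and 12.19 ± 0.09 in w1118 (SD, n = 2 each). Both w1118 values lay between the MJDtr-78Q values, and the spread within MJDtr-78Q was larger than the difference between groups.

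In both groups the library numbered 2 was above the one numbered 1, by more in MJDtr-78Q; the numbers themselves carry no order. MJDtr-78Q library 2 was above MJDtr-78Q library 1 by a median of 1.02 over the members, a 2.02-fold difference, with a range of 0.42 to 1.54. All 79 members were higher in MJDtr-78Q library 2, against 53.6% of all tested genes, and 41 were higher by at least 2-fold, against 8.74% of all tested genes. w1118 library 2 was above w1118 library 1 by a median of 0.32, with a range of 0.05 to 0.78, again in all 79 members, against 51.5% of all tested genes. For each of the 79 genes the gap within MJDtr-78Q was wider than the gap within w1118, as it was for 79.3% of all tested genes.

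Gaps within MJDtr-78Q differed among the proteins. They were widest for RpS27, a zinc-binding protein of the 40S subunit, RpL34a, RpL38 and RpL22, at 1.54, 1.50, 1.50 and 1.48. The narrowest were those of RpL23A, RpLP0, RpL7 and RpL3, at 0.42, 0.42, 0.46 and 0.50. These last genes encode 60S proteins, RpL3 near the peptidyl transferase centre and RpL23A at the exit of the nascent chain. The within-group gap was also narrowest for RpLP0 and RpL7 in w1118, at 0.05 and 0.09, and widest for RpL22 and RpL38, at 0.78 and 0.73.

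Each MJDtr-78Q library can be set against each w1118 library, which gives opposite directions. MJDtr-78Q library 1 was below w1118 library 1 in all 79 members, by a median of 0.57 on the log2 scale (range 0.23 to 1.04), while 51.1% of all tested genes were below. It was below w1118 library 2 in all 79, by a median of 0.92 (range 0.46 to 1.63), against 52.4% of all tested genes. MJDtr-78Q library 2 was above w1118 library 1 in all 79, by a median of 0.39 (range 0.01 to 0.99), against 50.4% of all tested genes. Only against w1118 library 2 were the members close, with a median difference of 0.06 and 57 of 79 above 0, against 45.7% of all tested genes. The direction of a single pair was thus set by which libraries were paired.

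**Figure D2:**
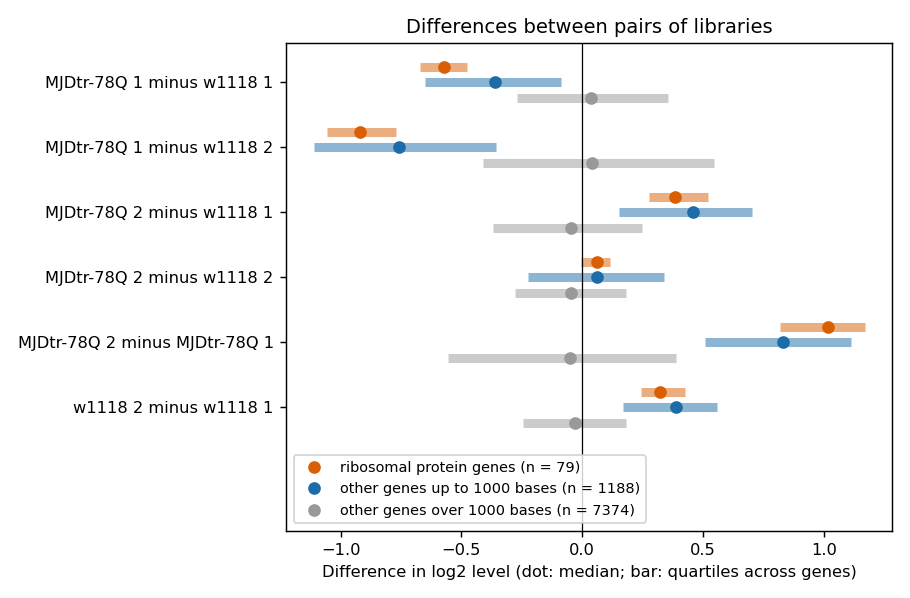
Difference in log2 level between each pair of libraries, as the median (dot) and the quartiles across genes (bar), for the 79 ribosomal protein genes, for 1188 other tested genes with up to 1000 exonic bases and for 7374 longer ones. The ribosomal protein genes and the other short genes moved to the same side in every pair, while the medians of the longer genes stayed between -0.05 and 0.04.

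Other short transcripts moved with the members, as the plot of library pairs shows. The median exonic length of the members was 927 bases, against 2163 bases over all tested genes with a length. The median gap between MJDtr-78Q library 2 and library 1 was 1.02 in the members, against 0.83 in other genes with up to 1000 exonic bases and -0.05 in other genes over 1000 bases. In the w1118 libraries the same gap was 0.32 in the members, 0.39 in other short genes and -0.03 in longer genes. Of the other short genes, 59.3% had the library order seen in all 79 members. The 70 tested mitochondrial ribosomal protein genes, which build the separate ribosome of the mitochondrion, had gaps of 0.69 in MJDtr-78Q and 0.44 in w1118.

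Length also ordered the members among themselves. The 46 members with up to 1000 exonic bases had a median gap of 1.07 within MJDtr-78Q, and the 33 longer members one of 0.86. Across the 79 members, Spearman's rho between the gap within MJDtr-78Q and exonic length was -0.49, and over the 8641 tested genes with a length it was -0.75. With the mean level the rho was -0.63 in the members, the more abundant ones having the narrower gaps, and 0.01 over all those genes. These are descriptions over genes that share the same libraries, and genes are not independent replicates.

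**Figure D3:**
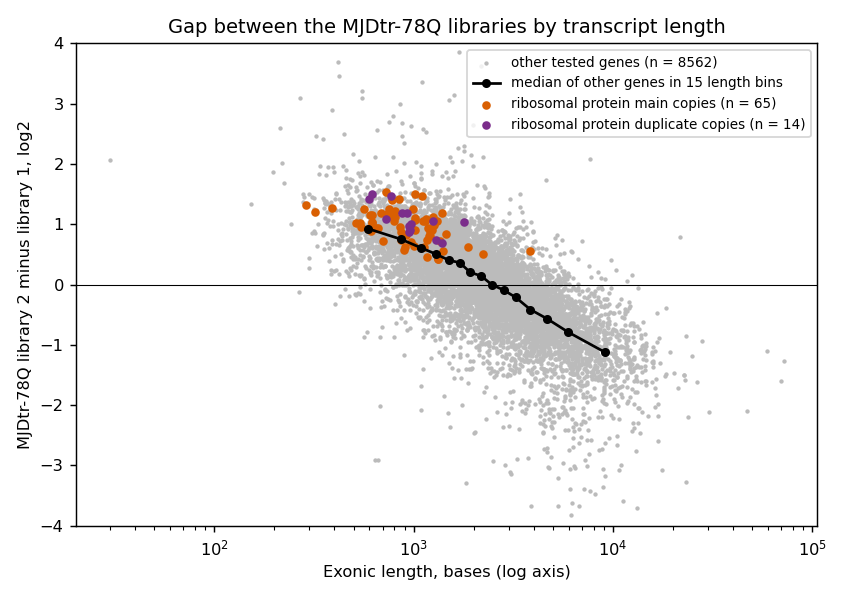
Gap between MJDtr-78Q library 2 and library 1, in log2 units, against exonic length in bases on a log axis, for other tested genes (grey, with the median of 15 length bins in black) and for ribosomal protein main copies (orange) and duplicate copies (purple). The bin medians run from 0.93 in the shortest genes to -1.12 in the longest, and 69 of the 79 members lie above that line; 20 other genes fall outside the axis limits of -4 and 4.

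In the plot by length, 69 of the 79 members lay above the line through the medians of other genes. When a smooth trend on length was removed from each library, the median gap of the members within MJDtr-78Q was 0.29, and that within w1118 was 0.08. The median difference of MJDtr-78Q library 1 was then -0.29 from w1118 library 1 and -0.38 from w1118 library 2, so MJDtr-78Q library 1 was still the low one. MJDtr-78Q library 2 differed by a median of 0.03 from w1118 library 1 and of -0.06 from w1118 library 2. On these length-corrected values limma again called 0 of 79 members between the groups, against 0.0694% of all genes tested on them, and the members' median group difference was -0.16. What made the libraries differ with length was not tested.

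Between the groups, no ribosomal protein gene passed the test. With limma and Benjamini-Hochberg adjustment over all tested genes at 0.05, 0 of 79 members were called, as were 0% of all tested genes, and 0 members had an unadjusted p under 0.05, against 5.88% of all tested genes. The difference was below 0 in MJDtr-78Q for 78 of 79 members, against 53.4% of all tested genes, with a median of -0.24 (1.18-fold lower) beside -0.02 over all tested genes. Since all members share the low MJDtr-78Q library 1, this count is not 79 separate observations. The 4 library medians gave an exact two-sided permutation p of 1, where 2 against 2 cannot go below 0.333, and their pooled SD within groups was 0.50.

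The interval of each difference was wide. Standard errors were between 0.25 and 0.58, with a median of 0.41 against 0.31 over all tested genes. All 79 of the 95% intervals held 0, 70 held a 2-fold fall and 9 held a 2-fold rise, so the test neither showed a change nor bounded it tightly. Without MJDtr-78Q library 1 the median difference was 0.22, with 74 of 79 members above 0, against 49% of all tested genes. Without MJDtr-78Q library 2 it was -0.75, with all 79 below 0, against 52.2% of all tested genes. Of these 79, 60 were lower with an unadjusted limma p under 0.05, against 12.6% of all tested genes that were lower at that p, and 0 were called after adjustment. Without w1118 library 1 the median was -0.42, and without w1118 library 2 it was -0.10. On the deposited scaling, in which MJDtr-78Q lay below w1118 by a median of 1.24 over all genes, 73 of 79 members were called, all lower, beside 74.7% of all genes tested on it.

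**Figure D4:**
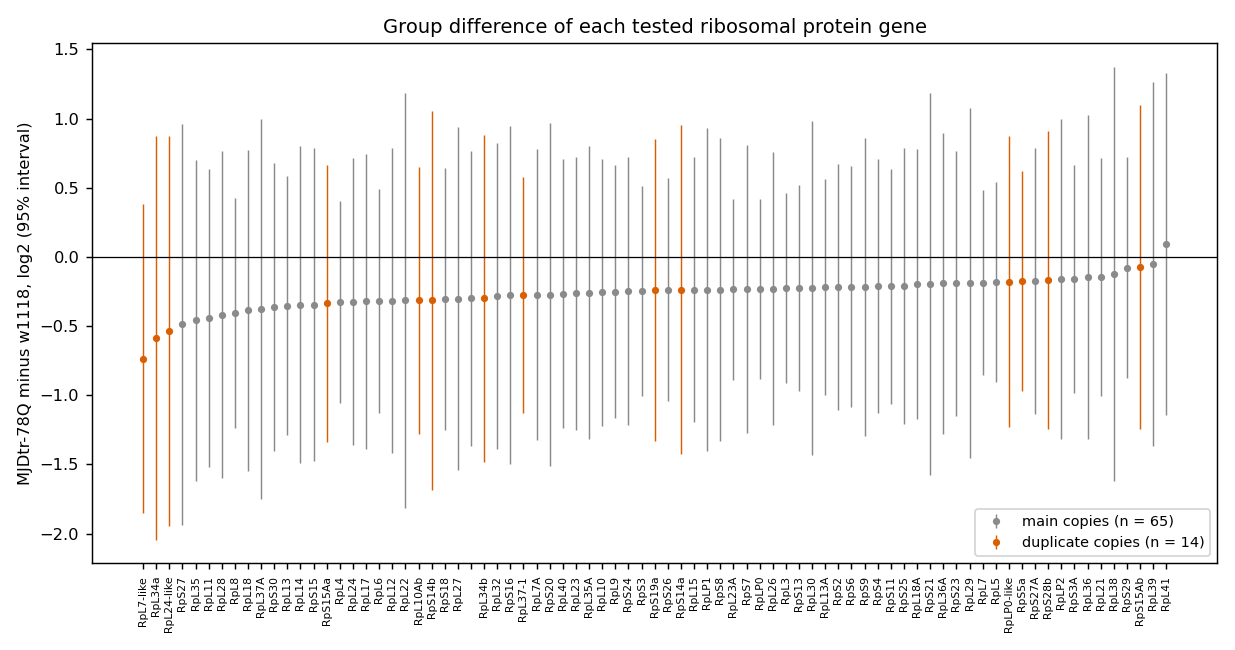
Difference MJDtr-78Q minus w1118 in log2 units with its 95% interval from limma for each of the 79 tested ribosomal protein genes, ordered by difference, with main copies in grey and duplicate copies in orange. Differences run from -0.74 for RpL7-like to 0.10 for RpL41, and every interval crosses 0; 1 gene is drawn without its name.

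The subunits did not stand apart in these differences. The median difference was -0.23 over the 31 genes of the 40S subunit and -0.26 over the 48 genes of the 60S subunit. The gap within MJDtr-78Q was 0.97 in the 40S and 1.03 in the 60S genes. By chromosome arm, as the deposited table places the genes, the median gap within MJDtr-78Q was 1.05 for 13 genes on X, 0.92 for 17 on 2L, 1.09 for 17 on 2R, 0.93 for 12 on 3L and 1.04 for 18 on 3R. RpS3A on chromosome 4 had a gap of 0.72 and RpL15, placed on the heterochromatic 3LHet, one of 0.90.

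RpL41, the smallest protein of the ribosome, was the 1 member whose difference was above 0. RpL41 (FBgn0066084, 2R, positions 20790939 to 20791452) was at 11.07 and 12.27 in MJDtr-78Q, against 11.29 and 11.85 in w1118, a difference of 0.10 ± 0.48 (SE). RpL39, a small protein lining the exit tunnel, was at 9.87 and 11.19 in MJDtr-78Q, against 10.31 and 10.86 in w1118, a difference of -0.05 ± 0.51 (SE). In both genes the w1118 values fell between the MJDtr-78Q values. The other main copies with the highest differences were the 40S protein gene RpS29 at -0.08, RpL38 at -0.12 and RpL21 at -0.14, the last 2 of the 60S subunit. RpS29 was at 11.09 and 11.73 in MJDtr-78Q, against 11.35 and 11.63 in w1118. RpL38 was at 9.47 and 10.97 in MJDtr-78Q, against 9.98 and 10.70 in w1118. RpL21 was at 11.58 and 12.30 in MJDtr-78Q, against 11.92 and 12.25 in w1118. In each of these 3 genes both w1118 values lay between the MJDtr-78Q values.

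At the low end of the main copies was RpS27 (FBgn0039300, 3R, positions 21071676 to 21073236), with a difference of -0.49 ± 0.56 (SE). It was at 10.09 and 11.63 in MJDtr-78Q, against 11.12 and 11.58 in w1118. Next came RpL35 at -0.46 ± 0.45 and RpL11, which binds the 5S ribosomal RNA, at -0.44 ± 0.41 (SE). RpL28 followed at -0.42 and RpL8, a protein of the peptidyl transferase centre, at -0.40. For RpL35 the values were 10.74 and 11.91 in MJDtr-78Q, against 11.61 and 11.95 in w1118. RpL11 was at 10.81 and 11.90 in MJDtr-78Q, against 11.72 and 11.88 in w1118. These 2 genes had nearly the same level in MJDtr-78Q library 2 and w1118 library 2. RpL28 was at 10.78 and 11.97 in MJDtr-78Q, against 11.60 and 11.99 in w1118. RpL8 was at 11.80 and 12.54 in MJDtr-78Q, against 12.49 and 12.66 in w1118. In all 5, MJDtr-78Q library 1 was the low library and the groups overlapped.

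The 3 stalk genes encode the proteins of the 60S arm that recruits elongation factors. RpLP0, its base, was at 11.90 and 12.32 in MJDtr-78Q, against 12.31 and 12.37 in w1118, with a difference of -0.23 ± 0.25 (SE). RpLP1, which forms dimers with RpLP2, was at 11.63 and 12.78 in MJDtr-78Q, against 12.20 and 12.67 in w1118. RpLP2 was at 11.23 and 12.39 in MJDtr-78Q, against 11.76 and 12.18 in w1118. The gap within MJDtr-78Q was therefore 0.42 in RpLP0, 1.14 in RpLP1 and 1.15 in RpLP2. Their exonic lengths are 1328 bases for RpLP0, 768 for RpLP1 and 604 for RpLP2. The part of length in these 3 gaps was not tested.

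RpS27A and RpL40 encode ribosomal proteins fused to ubiquitin, from which free ubiquitin is cut. RpS27A was at 11.39 and 12.31 in MJDtr-78Q, against 11.91 and 12.14 in w1118, a difference of -0.17 ± 0.37 (SE). RpL40 was at 11.31 and 12.25 in MJDtr-78Q, against 11.92 and 12.17 in w1118, a difference of -0.27 ± 0.38 (SE). Both had the library order of the other members.

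Per kilobase of exon, main copies ran from 9.45 to 12.71 in MJDtr-78Q library 1 and from 10.95 to 13.91 in MJDtr-78Q library 2. In w1118 they ran from 9.96 to 12.94 in library 1 and from 10.68 to 13.50 in library 2. On this scale of log2 level per kilobase, the median over members was 11.39 and 12.25 in MJDtr-78Q and 11.93 and 12.24 in w1118. The middle 50% of the members spanned 0.88 and 0.83 in MJDtr-78Q and 0.77 and 0.78 in w1118. RpL41 was the highest in all 4 libraries, with a mean of 13.27, followed by RpL23 at 12.76 and RpLP1 at 12.70. In the 40S subunit RpS27A led at 12.70, followed by RpS18 at 12.63. RpL23, whose protein lies on the face of the 60S subunit toward the 40S subunit, had normalised levels, not per kilobase, of 11.27 and 12.22 in MJDtr-78Q, against 11.89 and 12.13 in w1118. RpS18, a protein of the head of the 40S subunit, had 11.32 and 12.21 in MJDtr-78Q, against 11.94 and 12.20 in w1118. Both of these abundant genes kept the library order of the other members. On the scale per kilobase, RpL38 was the lowest main copy in all 4 libraries, with a mean of 10.26. Lengths came from an annotation whose transcripts may differ from those counted, and short transcripts such as RpL41 are the most exposed to this.

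The members' levels followed each other closely between libraries. Pearson's r of the levels between 2 libraries was between 0.974 and 0.995 over the 79 members, against 0.899 to 0.975 over all 9049 tested genes, as a description over genes that share libraries.

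Duplicate copies are counted with both members of a pair where the symbols end in a and b. Across all 14 tested duplicate copies, the mean level of main copies exceeded that of duplicate copies by 1.44 and 1.33 in MJDtr-78Q, against 1.37 and 1.27 in w1118. The means were 1.39 ± 0.08 in MJDtr-78Q and 1.32 ± 0.07 in w1118 (SD, n = 2 each). Their difference of 0.07 had an exact two-sided permutation p of 0.667, where the smallest possible was 0.333. The median group difference was -0.29 over duplicate and -0.24 over main copies, and the gap within MJDtr-78Q was 1.04 over duplicate and 0.99 over main copies.

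**Figure D5:**
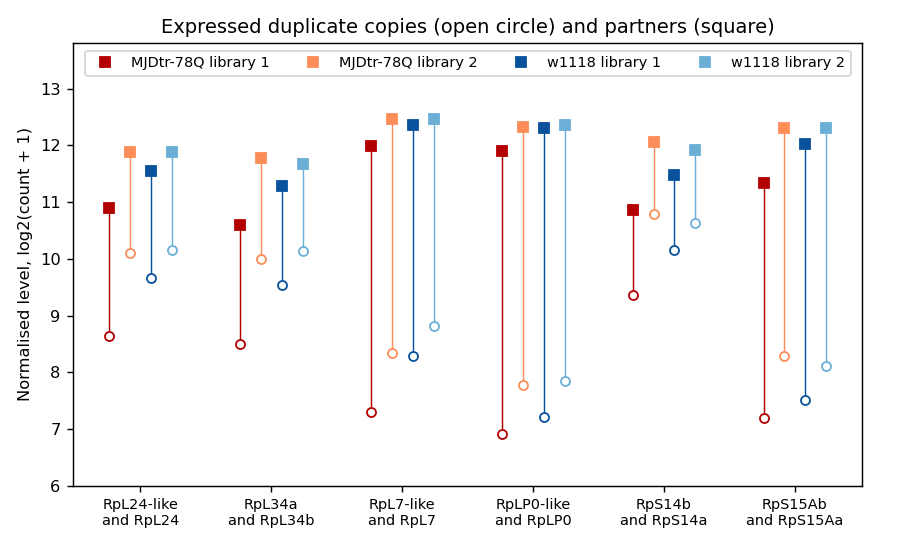
Normalised level, log2(count + 1), of 6 expressed duplicate copies (open circles) and the gene each is a copy of (squares), in MJDtr-78Q libraries 1 and 2 (reds) and w1118 libraries 1 and 2 (blues). The copy lay below its partner in all 4 libraries for all 6 pairs, with differences (copy minus partner) from -5.11 to -1.28 on the log2 scale.

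The plot of copies and partners shows 6 pairs in which both genes were expressed, and in each the minor copy lay below its partner in all 4 libraries. RpLP0-like lay -4.99 and -4.54 from RpLP0 in MJDtr-78Q, against -5.11 and -4.53 in w1118. RpL7-like lay -4.69 and -4.12 from RpL7 in MJDtr-78Q, against -4.07 and -3.64 in w1118. Per kilobase of exon RpL7-like was the farther below its partner in all 4 libraries, at -5.31 and -4.74 in MJDtr-78Q and -4.69 and -4.26 in w1118, beside -4.51 and -4.06 in MJDtr-78Q and -4.62 and -4.05 in w1118 for RpLP0-like. The yeast counterparts of RpLP0-like and RpL7-like, Mrt4 and Rlp7, are ribosome assembly factors and not parts of the finished ribosome. RpL24-like, whose yeast counterpart Rlp24 is also an assembly factor, lay -2.26 and -1.78 from RpL24 in MJDtr-78Q, against -1.87 and -1.73 in w1118. Per kilobase of exon this was less, at -1.54 and -1.07 in MJDtr-78Q and -1.16 and -1.02 in w1118. The RpL24-like levels themselves were 8.64 and 10.11 in MJDtr-78Q, against 9.67 and 10.15 in w1118, and those of RpL24 were 10.89 and 11.89 in MJDtr-78Q, against 11.54 and 11.89 in w1118. RpLP0-like was at 6.91 and 7.78 in MJDtr-78Q, against 7.21 and 7.84 in w1118, which made it one of the least abundant tested members. All 3 of these "-like" genes were thus lower than the structural protein genes they resemble.

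The other 3 expressed pairs are copies of structural proteins. RpS15Ab lay -4.15 and -4.02 from RpS15Aa, a 40S protein gene, in MJDtr-78Q, against -4.51 and -4.19 in w1118. Per kilobase of exon this was -3.76 and -3.64 in MJDtr-78Q, against -4.13 and -3.81 in w1118. RpL34a lay -2.08 and -1.77 from RpL34b, of the 60S subunit, in MJDtr-78Q, against -1.74 and -1.54 in w1118. Its values per kilobase were -1.50 and -1.19 in MJDtr-78Q, against -1.17 and -0.96 in w1118. RpS14b, next to RpS14a on X (positions 7828930 to 7829832 and 7827774 to 7828710), lay -1.51 and -1.28 from it in MJDtr-78Q, against -1.34 and -1.29 in w1118. Those of RpS14b per kilobase were -0.95 and -0.72 in MJDtr-78Q, against -0.78 and -0.74 in w1118. RpS14a and RpS14b are near-identical copies, so the split of reads between them is uncertain. The RpS14a levels were 10.87 and 12.06 in MJDtr-78Q, against 11.49 and 11.92 in w1118, and those of RpS14b were 9.36 and 10.78 in MJDtr-78Q, against 10.15 and 10.62 in w1118. RpS15Aa was at 11.34 and 12.31 in MJDtr-78Q, against 12.02 and 12.30 in w1118, and RpS15Ab was at 7.20 and 8.28 in MJDtr-78Q, against 7.51 and 8.11 in w1118. RpL34b was at 10.59 and 11.78 in MJDtr-78Q, against 11.29 and 11.68 in w1118. In none of these 3 pairs did the gap between copy and partner differ in direction between libraries.

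RpL7-like was the member with the lowest difference between groups. RpL7-like (FBgn0032404, 2L, positions 12056323 to 12057416) was at 7.30 and 8.34 in MJDtr-78Q, against 8.29 and 8.82 in w1118, a difference of -0.74 ± 0.43 (SE, limma unadjusted p = 0.150). Its MJDtr-78Q library 2 value was just above its w1118 library 1 value, so the groups overlapped. Its partner RpL7 was at 11.99 and 12.46 in MJDtr-78Q, against 12.36 and 12.46 in w1118, with a difference of -0.18 ± 0.26 (SE). RpL34a had a difference of -0.59 ± 0.56 and RpL24-like one of -0.54 ± 0.54 (SE). RpL34a was at 8.51 and 10.01 in MJDtr-78Q, against 9.54 and 10.14 in w1118.

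The major copies of the remaining pairs were RpL10Ab, RpL37-1, RpS5a, RpS19a and RpS28b, and their levels lay within the range of the main copies in every library. RpL10Ab, which encodes the protein of the ribosome's L1 stalk, was at 11.68 and 12.59 in MJDtr-78Q, against 12.30 and 12.60 in w1118. RpS5a, a 40S protein gene, was at 11.74 and 12.42 in MJDtr-78Q, against 12.19 and 12.32 in w1118. These 2 genes and the 3 that follow shared the order of the libraries. RpL37-1, of the 60S subunit, was at 11.15 and 11.89 in MJDtr-78Q, against 11.68 and 11.90 in w1118. RpS19a, of the 40S subunit, was at 10.63 and 11.68 in MJDtr-78Q, against 11.19 and 11.60 in w1118, and its human counterpart is mutated in Diamond-Blackfan anaemia. RpS28b, also of the 40S subunit, was at 11.08 and 12.08 in MJDtr-78Q, against 11.51 and 11.99 in w1118. The copies RpL37-2 and RpS28a were at 0 beside them. RpL22, an RNA-binding 60S protein gene with a "-like" copy, was at 9.61 and 11.09 in MJDtr-78Q, against 10.27 and 11.06 in w1118. Each had MJDtr-78Q library 1 as its lowest library.

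The 8 untested members were near or at the bottom of the table. RpL10Aa, RpL22-like, RpL37-2 and RpS28a were listed at 0 in all 4 libraries. RpS5b, known for its use in the ovary, had deposited values of 2.45 and 1.58 in MJDtr-78Q and 4.11 and 3.25 in w1118, on 2 scales that are not comparable between groups. RpS10a had deposited values of 0 and 1 in MJDtr-78Q and 1.29 and 0 in w1118. RpS19b was above 0 in MJDtr-78Q library 1 alone and RpS28-like in MJDtr-78Q library 2 alone, each at 1. The duplicate copies of these pairs were thus little detected in heads. Of the germline genes, otu was at 3.53 and 0 in MJDtr-78Q and at 2.02 and 0 in w1118, while grk was at 6.94 and 6.94 in MJDtr-78Q and at 6.82 and 7.09 in w1118.

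The members share gene features that the symbol rule did not use. Their median 5′ untranslated region was 58 bases and their median coding length 468 bases, against 148 and 1410 bases over all tested genes with the annotation. Of the 79 members, 26 (32.9%) held a small nucleolar RNA gene within their bounds, against 0.903% of 8641 tested genes, the members included. These guide RNAs direct modification of ribosomal RNA, and 71 of the 227 found inside tested genes lay in members. RpS5a held 14 and RpS7 held 7.

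Genes that work with the ribosome gave 0 calls in the same limma fit, as did all 9049 tested genes. The lists were chosen with earlier results of these data known. Of 33 translation initiation factor genes, 27 were below 0, with a median difference of -0.19. The one with the lowest p was eIF3l, a subunit of the factor that joins the 40S subunit to messenger RNA, with a difference of -0.36 ± 0.22 (SE). Of 12 elongation and release factor genes, 10 were below 0, with a median of -0.25. Rack1, a scaffold on the 40S subunit, was at 12.11 and 12.69 in MJDtr-78Q, against 12.71 and 12.91 in w1118, a difference of -0.41 ± 0.29 (SE). Both MJDtr-78Q values of Rack1 lay below both w1118 values, by little between 12.69 and 12.71. Groups that did not overlap, in either direction, were found in 29.5% of all tested genes and in 0 of 79 members.

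Ribosome assembly and RNA polymerase I genes had differences on both sides of 0. Of 29 assembly and nucleolar factor genes, 17 were below 0, with a median of -0.04, and CG4364 had the lowest p, with a difference of -0.56 ± 0.31 (SE). Of 10 RNA polymerase I genes, which transcribe ribosomal RNA, 5 were below 0, with a median of 0.01. TAF1B, a factor of its initiation complex, was at 5.65 and 5.21 in MJDtr-78Q and at 4.96 and 4.99 in w1118, a difference of 0.46 ± 0.31 (SE). The 70 mitochondrial ribosomal protein genes had a median of -0.11, with 53 below 0. None of the genes in these 3 lists, nor of the initiation and elongation factor lists, had an unadjusted limma p under 0.05, against 5.88% of all tested genes.

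Regulators of ribosome synthesis had a median library gap on the other side of 0 from the members. The median gap within MJDtr-78Q was 1.02 in the ribosomal protein genes, against -0.67 in 20 such regulators, whose median group difference was 0.09. Of these 20 gaps, 13 were below 0 and 7 above, from -2.15 to 1.22. Long genes also had gaps below 0, with a median of -1.12 in the longest length bin, and the regulators' lengths were not compared. brat, which encodes a translational repressor that limits growth, was at 8.85 and 7.89 in MJDtr-78Q, against 7.72 and 6.63 in w1118, a difference of 1.19 ± 0.51 (SE, limma adjusted p = 0.911). Both MJDtr-78Q values of brat lay above both w1118 values, and 29.5% of all tested genes had groups that did not overlap in either direction. In this fit brat did not pass the test.

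Markers of the cell types of a head also moved between the libraries that set the members' order. Back-transformed levels were summed over each list and the log2 of the sum was taken, so abundant genes weigh most. The 6 muscle markers were at 16.10 and 15.46 in MJDtr-78Q and at 15.23 and 15.11 in w1118. The 7 neuron markers in the table were at 14.39 and 13.54 in MJDtr-78Q and at 13.99 and 13.61 in w1118. The 12 photoreceptor markers were at 16.44 and 16.18 in MJDtr-78Q and at 17.13 and 17.12 in w1118. Not all of the 12 followed this sum: 3 of them, trp, norpA and ninaC, were highest in MJDtr-78Q library 1. The other photoreceptor markers were highest in a w1118 library. Hemocyte markers were at 13.15 and 12.22 in MJDtr-78Q and at 12.11 and 11.64 in w1118. The sums of the muscle, neuron, hemocyte, glia and fat body markers were highest in MJDtr-78Q library 1, where the ribosomal protein genes were lowest. Single markers were highest there for 3 of 6 muscle, 6 of 7 neuron and 4 of 6 hemocyte genes, and highest in MJDtr-78Q library 2 for the others. In MJDtr-78Q library 1, 3 of 6 glia and 4 of 6 fat body genes were highest, with Yp1 tied, and the others were highest in w1118. The muscle sum in MJDtr-78Q library 1 was led by Mhc, the myosin heavy chain gene, at 15.40 in MJDtr-78Q library 1 and 13.64 in MJDtr-78Q library 2. Genes in the longest of the 15 length bins also lay higher in MJDtr-78Q library 1, with a median gap (library 2 minus library 1) of -1.12. The part of these markers, or of their length, in the members' levels was not tested. Glia markers were at 13.99 and 13.54 in MJDtr-78Q and at 13.78 and 13.56 in w1118, and fat body markers at 16.11 and 16.01 in MJDtr-78Q and at 16.06 and 15.90 in w1118. Testis markers summed to 4.76 and 4.30 in MJDtr-78Q and to 5.46 and 5.54 in w1118. The ovary and germline list, carried by the yolk protein genes that the fat body also expresses, was at 16.57 and 16.99 in MJDtr-78Q and at 16.92 and 16.87 in w1118. Of its 12 markers in the table, 8 were highest in MJDtr-78Q library 1, with Yp1 tied. A further 3 were highest in MJDtr-78Q library 2 and 1 in w1118 library 2. Among the 8, orb was at 5.92 and 0 in MJDtr-78Q and at 3.69 and 3.18 in w1118.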

How the data were processed

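Poly(A) RNA of fly heads had been made into stranded libraries, per the labels' protocols. Per the submitters' processing notes, HTSeq 0.6.1, TopHat2 2.0.10, Bowtie, CASAVA 1.8.2 and cutadapt 1.2.1 were among the tools; what each did, and the genome build, are not stated there. The deposited values are log2(count + 1), as read from the values, and are quantile normalized within each group only, so own depth and counting error are unknown. Coordinates are those of the deposited table. Here the 4 libraries were quantile normalized together, genes with a mean of at least 10 were kept, and MJDtr-78Q was set against w1118 by limma 3.58.1 (R 4.3.3, intensity trend, two-sided, Benjamini-Hochberg at 0.05). Symbols came by gene ID from a reference name table (15002 IDs matched, 680 did not), and lengths from Ensembl release 115, for 95.5% of tested genes. Fold changes understate low genes. Members and gene lists were chosen with earlier results of these data known. Values are given for each copy pair, the 5 highest and 5 lowest main copies, the 3 most abundant per length in each subunit, stalk, ubiquitin-fusion and RpS6 genes, and up to 4 genes of each other list by p, of which the first is given; RpL3, RpL15, RpL23A, RpS3A and RpS7 were named after their values were seen. Some genes that the rule names are not reported here. Alternatives were filters, pseudocount, TMM, the deposited scaling, a length correction (loess, span 0.5), each library left out, no intensity trend and the replicate number as a block.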

Additional observations from a re-analysis of the deposited data

How the results depend on the processing

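No ribosomal protein gene was called without the filter on low values, with a mean of at least 50 or with a pseudocount of 5. The count was also 0 with TMM scaling, after length correction and without the intensity trend. Among all tested genes 0 were called in these settings too, apart from 6 after length correction. On the deposited scaling 73 were called, with a median difference of -1.44, or -0.20 relative to all genes; its pair medians against w1118 library 1 and library 2 were -1.78 and -2.12 for MJDtr-78Q library 1 and -0.80 and -1.11 for MJDtr-78Q library 2. That scaling is not alike between groups. Length correction moved the median of MJDtr-78Q library 1 minus w1118 library 2 to -0.38 and that of MJDtr-78Q library 2 minus library 1 to 0.29; the other pairs moved by less than the spread of library medians. The median difference was between -0.75 and 0.22 with 1 library left out, and main minus duplicate copies differed between the groups by 0.01 to 0.12; without the filter, which adds 4 copies near 0, that difference was -0.054.

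Single genes changed sign on the deposited scaling for RpL41 (-1.10), TAF1B (-0.80) and brat (-0.014), and after length correction for RpL39 (0.15), RpS15Ab (0.047) and RpS29 (0.0020). With 1 library left out the sign was lost in 32 of 40 named genes, whose lowest and highest differences were as follows, and the lone library of a group was assumed to vary like the others. RpL10Ab ran from -0.77 to 0.14, RpL11 ran from -0.99 to 0.11, RpL21 ran from -0.51 to 0.22. RpL22 ran from -1.05 to 0.42, RpL23 ran from -0.74 to 0.22, RpL24 ran from -0.82 to 0.17. RpL24-like ran from -1.27 to 0.20, RpL28 ran from -1.01 to 0.18, RpL34a ran from -1.34 to 0.17. RpL34b ran from -0.89 to 0.30, RpL35 ran from -1.05 to 0.13, RpL37-1 ran from -0.65 to 0.10. RpL38 ran from -0.87 to 0.63, RpL39 ran from -0.71 to 0.61, RpL40 ran from -0.73 to 0.20. RpL41 ran from -0.51 to 0.70, RpL7 ran from -0.42 to 0.047, RpLP0-like ran from -0.62 to 0.26. RpLP1 ran from -0.81 to 0.34, RpLP2 ran from -0.74 to 0.42. RpS14a ran from -0.83 to 0.36, RpS14b ran from -1.02 to 0.40, RpS15Aa ran from -0.82 to 0.15. RpS15Ab ran from -0.61 to 0.47, RpS18 ran from -0.75 to 0.14. RpS19a ran from -0.77 to 0.29, RpS27 ran from -1.26 to 0.28, RpS27A ran from -0.63 to 0.29. RpS28b ran from -0.67 to 0.33, RpS29 ran from -0.40 to 0.24, RpS5a ran from -0.51 to 0.17. RpS6 ran from -0.62 to 0.19. In 31 of these the sign turned without MJDtr-78Q library 1.

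The replicate numbers pair the libraries only by number, since no label says that they mark a batch. Deviations of same-numbered libraries had a correlation of 0.54 over tested genes. With the number as a block limma called 387 of 9049 tested genes and 0 of 79 ribosomal protein genes. An unadjusted limma p under 0.05 was found for 1 of 79 members, against 1082 of 9049 tested genes. In this fit brat was called (limma adjusted p = 0.00792).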
